A study of Brassica napus with 23 samples.

Results

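Described here are 150 genes of Brassica napus (oilseed rape) whose level moved in opposite directions in shoot and root between the harvests of control plants, out of 101040 genes counted. The members were selected on measured values, the harvest differences of the control libraries together with the level of PA23-treated roots at 24 h. Counts were divided by the library total in M counts (M, mega) to give CPM, and group means were taken over libraries of at least 2 M counts. The difference between harvests in each tissue was log2 of the ratio of the 7 d mean to the 24 h mean, with 0.5 CPM added to both. A gene had to average 5 to 300 CPM in the controls of each tissue, which 21412 genes did, and to have differences of opposite sign, which left 11017. It also had to lie within 0.5 log2 units of the control in PA23-treated roots at 24 h, which left 9274. The 150 members are those in which the smaller of the shoot and root differences, sign ignored, was largest. In 53 of them the control mean at 7 d was above that at 24 h in shoot and below it in root, and these are called shoot-up genes. In the other 97 it was the reverse, and these are called root-up genes. The names refer to the controls alone.

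The libraries came from shoots and roots treated with PA23 or with LB broth, the control, and harvested 7 d or 24 h after treatment. Pseudomonas chlororaphis PA23 is a bacterium applied to crops against fungal disease, and 15 mL of culture was given. Each of the 8 groups of tissue, treatment and harvest held 3 libraries, except control roots at 24 h, which held 2 (replicates 2 and 3). The labels name no cultivar, and they state treatment at day 7 and growth for 14 days for the 24 h harvest too, so the plant age at that harvest is uncertain. They do not say whether replicates were separate plants, so a p-value here covers only library-to-library spread, which may be technical.

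Shoots fix carbon and export sugars, and roots take up water and minerals and use those sugars, so a gene active in both organs can follow the development of each separately. B. napus is an allotetraploid with an A and a C subgenome, and most genes have a near-identical copy in the other subgenome. The assignment of reads shared by such copies is not stated in the labels, and the level of a single copy is therefore uncertain. The members carry no product names in the tables used here, so they are given by identifier and position, and no role is stated for any of them. Positions are those of the deposited table, whose build the labels do not name. Because whole organs were sampled, fewer cells of a type and less RNA per cell cannot be told apart.

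Depth was 0.622 to 721 M counts per library. In 6 libraries, each of a different group, it was 1.70 M or less, and the other 17 held 16.8 M or more. The deepest, at 721 M, was PA23 root 24 h replicate 1, and the next deepest library held 130 M. That replicate was also the only PA23 root library with a different label prefix. Several libraries stood apart in ways that touch the members. Control shoot 7 d replicate 1 differed from replicate 3 with a coefficient of variation of 37.8%, the highest of any pair of replicates in which both libraries held at least 2 M counts. PA23 shoot 7 d replicates 1 and 3 were the closest pair, at 6.52%. PA23 root 7 d replicate 1 had 57.6% odd values among counts of 1 to 10, against 18.9% to 33.6% in the other libraries. A list of 450 other genes, at 100 CPM or more in control shoots at 24 h and at least 50 times their control root level, summed to 7581 CPM in PA23 root 7 d replicate 3. The same list summed to 409 to 812 CPM in the other 10 root libraries, so that replicate stood apart by its level of shoot genes. Tissue labels could not be checked by marker genes, since too few identifiers matched a name.

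In the controls that chose them, the shoot-up genes differed between the harvests by a median of 0.75 log2 units in shoot (0.50 to 1.47) and -0.59 in root (-0.995 to -0.50). The root-up genes differed by a median of -0.85 in shoot (-3.04 to -0.50) and 0.63 in root (0.50 to 3.97). These values describe the choice and are not tested. Large opposite differences were all in the root-up class: at 1 log2 unit or more in both tissues there were 14 root-up genes and 0 shoot-up genes, and at 0.75 or more there were 23 and 0. The last member inside the limit, the shoot-up gene BnaC02g01110D, had differences of 0.50 in shoot and -0.57 in root. The first gene outside it, BnaA09g32430D, had 0.58 and -0.50. Within the level limits of the choice, the median control mean of the shoot-up genes was 10.8 CPM in shoot and 14.8 CPM in root, and that of the root-up genes was 13.7 and 22.0 CPM.

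For the shoot-up genes the choice in shoot rested mostly on 1 library. The median log2(CPM + 0.5) of the 53 genes was 4.17 in control shoot 7 d replicate 1, 3.62 in replicate 2 and 3.42 in replicate 3, against 3.73, 3.19 and 3.08 in the 3 control shoots at 24 h. Without replicate 1 the median control difference of these genes in shoot was 0.22, 45 of 53 kept a positive sign and 8 reached 0.5. Without replicate 3 the median was 1.07. The root-up genes were less dependent on it, with a median of -0.88 without replicate 1 and -1.04 without replicate 3, and all 97 stayed negative in both cases. Chosen without replicate 1, the 150 genes would comprise 27 shoot-up and 123 root-up genes, and 86 of them would be the same as here. Leaving out any 1 of the 4 control root libraries of at least 2 M counts kept the root sign of all 53 shoot-up genes and of 94 or more of the 97 root-up genes.

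**Figure D1:**
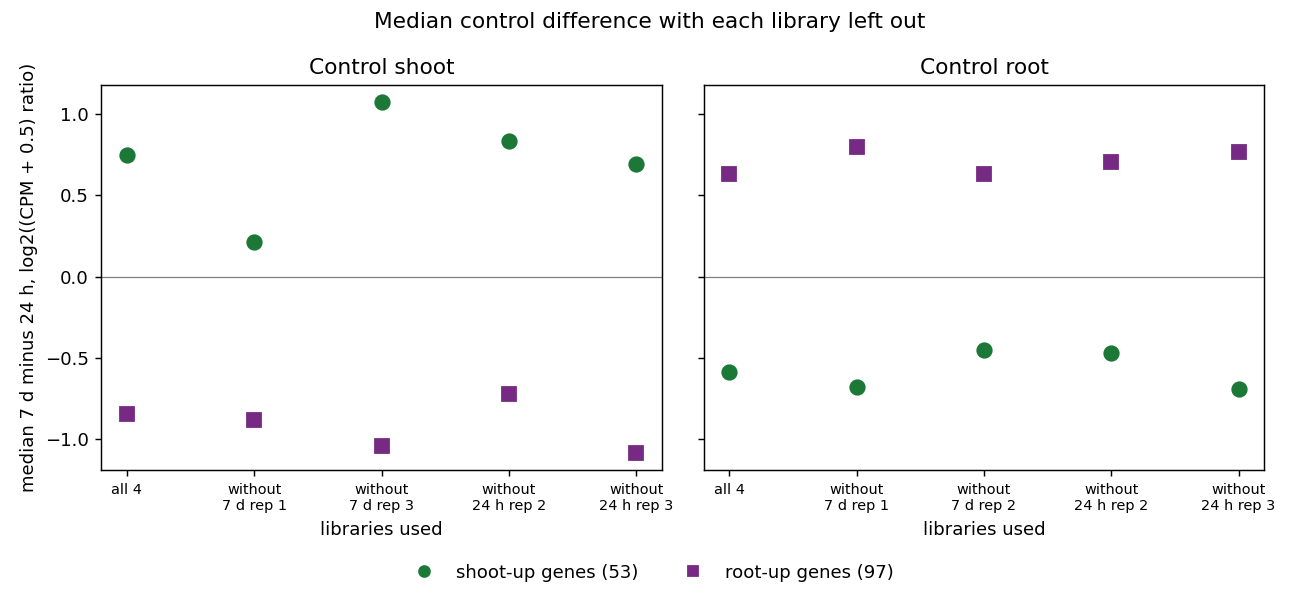
Median difference between 7 d and 24 h in controls (log2 scale) for the 53 shoot-up genes (circles) and the 97 root-up genes (squares), over all 4 libraries of at least 2 M counts in a tissue and with each left out. The shoot-up median in shoot is 0.75 over all 4 libraries and 0.22 without 7 d replicate 1.

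The choice left unused 3 control libraries under 2 M counts, of which a pair are shoots, 7 d replicate 2 and 24 h replicate 1. Between them the root-up genes were lower at 7 d in 72 of 97 cases (74.2%, against 55.8% of the 21412 genes in the level range), with a median of -0.69. The shoot-up genes were higher at 7 d in 28 of 53 (52.8%, against 44.2%), with a median of 0.02. In the third, control root 7 d replicate 3, the shoot-up genes lay below the 24 h control root mean in 49 of 53 (92.5%, against 55.6% of the level range). The root-up genes lay above it in 75 of 97 (77.3%, against 44.4%). That mean is of libraries the choice used, so part of this agreement can follow from the choice. All 3 unused controls are single libraries in which the median member had 4 to 24 counts, so the counting error is large and no test was made.

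PA23-treated plants give the time course of the members in shoot libraries that played no part in the choice. In roots, the 3 PA23 libraries at 24 h entered the 0.5 log2 limit, and those at 7 d played no part. Taking group means over libraries of at least 2 M counts, 67 of 97 root-up genes (69.1%) were lower at 7 d in PA23 shoots and higher in PA23 roots, as in the controls, where 30.1% of the genes in the level range were. Of the 53 shoot-up genes, 13 (24.5%) were higher at 7 d in PA23 shoots and lower in PA23 roots, where 8.27% of the genes in the level range were. Among the 18596 genes of the level range that also met the limit on PA23 roots at 24 h, the shares for both tissues were 28.6% in the root-up and 8.68% in the shoot-up direction, and those for root alone 49.6% and 50.4%. By tissue, the root-up genes were lower in PA23 shoots in 82 cases (84.5%, against 70.4%) and higher in PA23 roots in 78 (80.4%, against 51.4%). The shoot-up genes were higher in PA23 shoots in 40 cases (75.5%, against 29.6%) but lower in PA23 roots in only 19 (35.8%, against 48.6%). Median differences were -0.73 in shoot and 0.37 in root for the root-up genes, and 0.20 and 0.06 for the shoot-up genes. By sign in the edgeR root fit used below, 67 of 97 root-up genes were higher and 31 of 53 shoot-up genes lower. In that fit 42.3% of the level range was higher and 57.7% lower. When members were chosen without the limit on PA23 roots at 24 h, 68 of 124 root-up genes were higher. Of the shoot-up genes so chosen, 13 of 26 were lower. The root agreement was thus weaker without the limit. Over libraries of at least 2 M counts, all 7 d values lay below all 24 h values in PA23 shoots for 68 of 97 root-up genes (46.8% of the level range), and above them in PA23 roots for 55 of 97 (30.7%). For the shoot-up genes the 7 d values lay above in PA23 shoots for 28 of 53 (16.5%) and below in PA23 roots for 10 of 53 (28.1%). With 2 libraries against 2 in shoot and 2 against 3 in root, such separation is common, as the shares of the level range show.

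**Figure D2:**
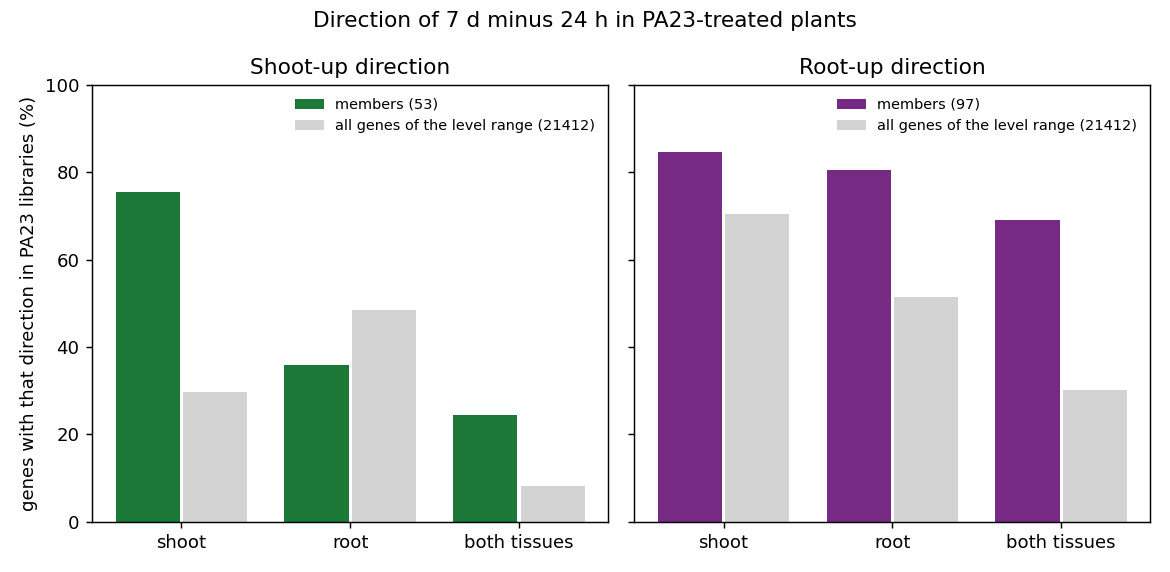
Share of genes (%) whose PA23 mean lay in the stated direction at 7 d relative to 24 h, in shoot, root and both, for the members of each class (coloured bars) and all 21412 genes of the level range (grey bars). The left panel shows the shoot-up direction (higher in shoot, lower in root), the right panel the root-up direction. Both tissues followed in 24.5% of shoot-up and 69.1% of root-up genes.

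The median gene of the level range itself differed between the harvests in PA23 shoots, by -0.16 on raw CPM, -0.08 after TMM scaling and -0.05 after RLE scaling, so small negative differences there lie near the general shift. With TMM scaling the root-up count in both tissues was 58 of 97 (19.6% of the level range) and the shoot-up count was 20 of 53 (14.9%). The sign of the shoot-up median in PA23 roots depended on scaling, at 0.06 on raw CPM, 0.02 with RLE and -0.01 with TMM. With the libraries under 2 M counts added, 55 root-up genes (27.4% of the level range) and 11 shoot-up genes (14.8%) followed in both tissues, and the shoot-up genes were higher in PA23 shoots in 23 of 53 cases (38.01%). PA23 root libraries of the label prefix that all 3 of the 7 d libraries carry, which leaves out 24 h replicate 1, gave 76 of 97 root-up genes higher (50.1%) and 28 of 53 shoot-up genes lower (49.9%).

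**Figure D3:**
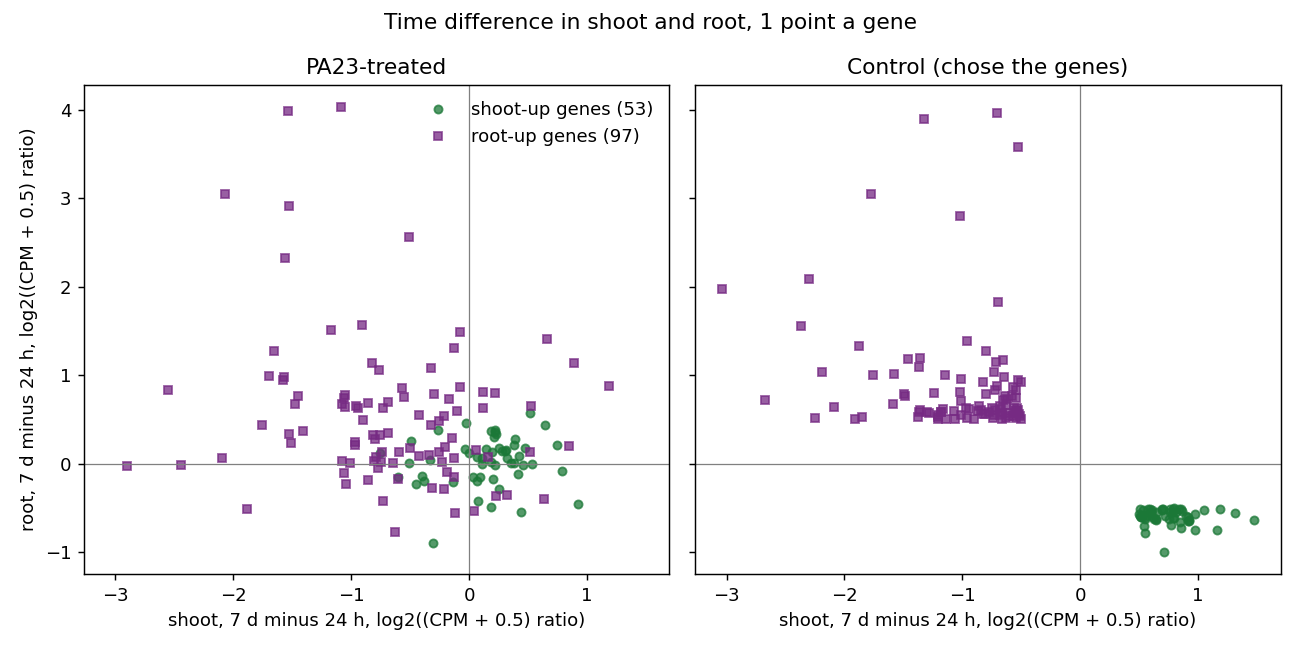
Difference between 7 d and 24 h in shoot (x axis) and root (y axis), log2 scale, 1 point a gene, from means of libraries of at least 2 M counts, in PA23-treated plants (left) and in controls (right), which chose the genes. In PA23-treated plants 67 of the 97 root-up genes lie in the upper left quadrant and 13 of the 53 shoot-up genes in the lower right one.

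The library medians show which samples carry the pattern. In PA23 shoots the median log2(CPM + 0.5) of the root-up genes was 3.52, 4.38 and 3.46 at 7 d (replicates 1 to 3), against 4.23, 4.02 and 3.69 at 24 h. PA23 shoot 7 d replicate 2, with 0.883 M counts, thus lay above all the 24 h libraries, while the close pair of replicates 1 and 3 lay below them. In PA23 roots the median was 4.68, 4.61 and 4.93 at 7 d, against 4.12, 4.06 and 4.17 at 24 h, with no overlap. The shoot-up genes had medians of 3.46, 3.26 and 3.40 in PA23 shoots at 7 d, against 3.52, 3.21 and 3.41 at 24 h, and 3.83, 4.05 and 3.64 in PA23 roots at 7 d, against 3.76, 3.98 and 4.02 at 24 h, so the harvests overlapped in both tissues. Between PA23 shoot 7 d replicate 2 and 24 h replicate 1, both under 2 M counts, 49 of 97 root-up genes (50.5%) were lower at 7 d, against 50.8% of the level range.

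**Figure D4:**
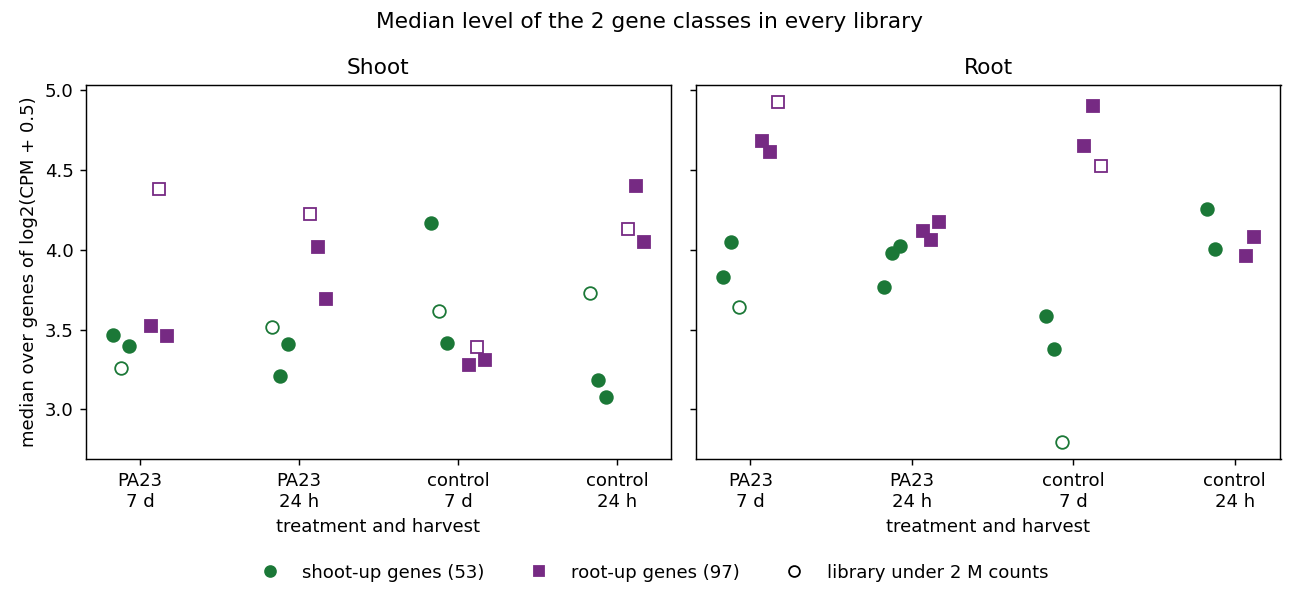
Median log2(CPM + 0.5) of the 53 shoot-up genes (circles) and the 97 root-up genes (squares) in every library, by tissue, treatment and harvest; open symbols mark libraries under 2 M counts. In roots the root-up medians of PA23 at 7 d (4.61 to 4.93) lie above those at 24 h (4.06 to 4.17), and in shoots 1 open symbol of PA23 at 7 d (4.38) lies apart from the other 7 d libraries.

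The time change was tested in PA23 shoots with edgeR's quasi-likelihood test over 56654 genes, and a gene was called where its p, adjusted by Benjamini-Hochberg, was under 0.05. The spread was estimated from all 12 shoot libraries, among them the control shoots that chose the members. The p-values are therefore not fully independent of the choice. The change was past the threshold in the control direction for 4 of 97 root-up genes, all lower at 7 d, where 0.3% of all genes tested and 0.308% of the level range were called lower. For the shoot-up genes 0 of 53 passed, where 0.45% of all genes and 0.29% of the level range were called higher. At an unadjusted p under 0.05 there were 31 root-up genes lower (background 4.83%) and 6 shoot-up genes higher (background 4.06%), and DESeq2 and limma-voom also called 0 shoot-up genes. No member passed in the opposite direction. The median log2 fold change was -0.54 for the root-up genes and 0.18 for the shoot-up genes, against -0.07 over the level range. The 4 calls became 16 when PA23 7 d replicate 2, control 7 d replicate 1 or all libraries under 2 M counts were left out. The number of all genes called lower rose as well in these fits, from 170 to 521, 772 and 457. Without control 7 d replicate 1 the 16 were 14 root-up and 2 shoot-up genes, and 1 gene of each class passed against its class. Only 1 call was left when PA23 7 d replicate 1 or 3, or PA23 24 h replicate 2 or 3, was left out. Of all genes, 5, 5, 53 and 132 were then called lower, in that order. A fit of only the PA23 shoot groups called 12 root-up and 0 shoot-up genes, and 1 root-up gene passed against its class. That fit called 560 of all genes lower.

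BnaC01g20480D (chromosome C01, 14313117 to 14316559) had the largest shoot fall. It lay at 0.477, 1.13 and 0.433 CPM in PA23 shoots at 7 d, against 8.20, 7.17 and 6.14 CPM at 24 h. In PA23 roots it lay at 15.6, 11.7 and 7.98 CPM at 7 d, against 14.7, 12.1 and 14.8 CPM at 24 h. The shoot harvests were far apart and the root harvests overlapped. The log2 fold change was -3.79 in shoot (SE 0.42, edgeR adjusted p = 2.16e-05) and -0.21 in root (SE 0.20, edgeR adjusted p = 0.578). The shoot call held without any 1 of the 12 libraries and under every other alternative fit. Control shoots had 1.49, 1.18 and 1.04 CPM at 7 d, against 5.67, 11.6 and 9.94 CPM at 24 h; 7 d replicate 2 and 24 h replicate 1 took no part in the choice.

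The other 3 shoot calls were genes that are abundant in shoot and scarce in root at 24 h. BnaC02g40420D (C02, 43367516 to 43370425) lay at 56.0, 90.6 and 52.3 CPM in PA23 shoots at 7 d, against 112, 140 and 174 CPM at 24 h (log2 fold change -1.13, SE 0.23, edgeR adjusted p = 0.0131). BnaA09g26590D (A09, 19816330 to 19819304) lay at 94.7, 179 and 96.0 CPM, against 209, 262 and 292 CPM (-1.06, SE 0.24, edgeR adjusted p = 0.0283). BnaCnng53320D (Cnn_random, 53006843 to 53009573) lay at 144, 196 and 152 CPM, against 284, 288 and 342 CPM (-0.87, SE 0.19, edgeR adjusted p = 0.0261). In all 3 genes every 7 d library lay below every 24 h library, and PA23 7 d replicate 2 was the highest at 7 d. Each of these calls was lost without PA23 7 d replicate 1 or 3 or without PA23 24 h replicate 2 or 3 (edgeR adjusted p 0.068 to 0.417), and that of BnaCnng53320D also without control 24 h replicate 3 (0.0551) and with a replicate block (0.0639). With the 3 closest pairs of libraries summed, these 3 genes missed the threshold and BnaC01g20480D kept its call.

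More members passed in roots. The 24 h libraries of this test also entered the choice of the members, through the 0.5 log2 limit, so these counts and p-values are not independent of it. In the test over 63551 genes, 22 of 97 root-up genes rose in PA23 roots at 7 d, where 2.78% of all genes tested were called higher (2.99% of the level range, 1.95% of its genes within that limit). Of the shoot-up genes 2 of 53 fell, where 4.28% of all genes were called lower (7.11% of the level range, 5.77% within the limit). No member passed against its class in this fit, but 3 did with limma-voom and 3 without PA23 7 d replicate 1. Among 150 genes chosen without the limit, 50 of them members, 23 root-up genes rose, while 11 root-up genes and 1 shoot-up gene passed against their class, and the root-up median was 0.20. Log2 fold changes of the called root-up genes ran from 0.66 to 4.95 with a median of 1.13. Over all members the median was 0.36 for the root-up genes and -0.04 for the shoot-up genes, against -0.08 over the level range. The total of 24 was 13 without PA23 24 h replicate 1, 8 without replicate 2 and 7 without replicate 3 of that group, 8 without PA23 7 d replicate 2, and 10 with the label prefix as a covariate. The number of all genes called higher, 1768 in the fit of all libraries, fell as well, to 865, 655, 646, 555 and 899. PA23 24 h replicates 2 and 3 and PA23 7 d replicates 1 and 2 are among the 3 closest pairs, and with those pairs summed the total was 4. That fit called 349 of all genes higher. With PA23 7 d replicate 3 left out the total was 23, and with replicate 1 left out 21 (1811 and 2101 of all genes called higher).

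BnaC06g31860D (C06, 32253649 to 32254497) ranked highest of the members by the smaller of its control differences, and its root rise held in every alternative. It lay at 45.9, 43.0 and 86.8 CPM in PA23 roots at 7 d, against 13.8, 10.9 and 20.8 CPM at 24 h (log2 fold change 1.73, SE 0.25, edgeR adjusted p = 0.00138). Control roots had 50.4, 53.7 and 46.6 CPM at 7 d and 11.5 and 12.2 CPM at 24 h. Root harvests were apart under both treatments. In PA23 shoots it lay at 4.74, 32.8 and 4.96 CPM at 7 d, against 21.9, 13.8 and 9.30 CPM at 24 h, with replicate 2 above all the 24 h libraries (-0.71, SE 0.84, edgeR adjusted p = 0.937). In control shoots at 24 h 1 library stood out, replicate 2 at 56.7 CPM, against 16.5 CPM in replicate 3, the other one used by the choice, and 13.5 CPM in replicate 1, which was not used.

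BnaA10g11500D (A10, 9656813 to 9657931) came next by the smaller of its control differences. It lay at 24.4, 23.4 and 10.97 CPM in PA23 roots at 7 d, against 10.6, 7.43 and 7.97 CPM at 24 h (1.21, SE 0.33, edgeR adjusted p = 0.0429). In PA23 shoots it lay at 10.0, 24.9 and 9.91 CPM at 7 d, against 5.47, 8.52 and 3.70 CPM at 24 h, above the 24 h libraries where the controls were below them (1.03, SE 0.78, edgeR adjusted p = 0.844). Its shoot difference in the controls also rested on 24 h replicate 2, at 20.6 CPM, against 4.25 and 2.33 CPM. The root call was lost without any 1 of 6 of the 11 libraries: PA23 24 h replicate 2 or 3, PA23 7 d replicate 1 or 2, or control 24 h replicate 2 or 3 (edgeR adjusted p 0.054 to 0.178). It was also lost in 3 of the 10 other alternatives.

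The 2 largest root rises were BnaA09g26590D and BnaCnng53320D, which also fell in PA23 shoots and were the only members called in both tissues. BnaA09g26590D lay at 32.3, 35.1 and 144 CPM in PA23 roots at 7 d, against 2.66, 1.04 and 1.26 CPM at 24 h (4.95, SE 1.02, edgeR adjusted p = 0.0316). BnaCnng53320D lay at 22.6, 31.6 and 76.8 CPM, against 1.86, 0.519 and 1.18 CPM (4.72, SE 0.95, edgeR adjusted p = 0.0283). The harvests did not overlap, and the highest library was PA23 root 7 d replicate 3, in which the summed shoot-gene list was also high. Without that replicate the log2 fold changes were 4.17 and 4.28, both past the threshold (edgeR adjusted p = 0.0362 and 0.0409). Both calls were lost without any 1 of the 3 PA23 24 h libraries or PA23 7 d replicate 2, and that of BnaA09g26590D also without either control 24 h library (edgeR adjusted p 0.0547 to 0.108 over these fits). Neither passed with a replicate block (0.0906 and 0.0749) or with the label prefix as a covariate (0.0935 and 0.082), nor with the 3 closest pairs summed (0.161 and 0.143). In control roots at 7 d the level came mostly from replicate 2, with 41.5 CPM of BnaA09g26590D against 6.06 and 3.22 CPM in replicates 1 and 3, and 32.9 CPM of BnaCnng53320D against 4.003 and 4.82 CPM.

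These are part of a group of 7 root-up genes that were at least 10 times higher in control shoot than in control root at 24 h; there were 0 such shoot-up genes. For 3 of them, BnaCnng53320D, BnaA09g26590D and BnaC02g40420D, the ratio was over 50. BnaC02g40420D lay at 7.87, 9.40 and 50.9 CPM in PA23 roots at 7 d, against 1.33, 0.439 and 0.371 CPM at 24 h (4.18, SE 1.19, edgeR adjusted p = 0.079; DESeq2 0.00297, limma-voom 0.0278). This gene missed the threshold in 10 of the 11 fits that leave out a library and in 7 of the 10 other alternatives. Its highest value was in replicate 3 as well. The summed shoot-gene list was 620, 644 and 7581 CPM in PA23 roots at 7 d, against 549, 409 and 462 CPM at 24 h, and 454, 691 and 812 CPM in control roots at 7 d, against 462 and 436 CPM at 24 h. Over PA23 root replicates 1 and 2 alone, the 7 d means were 27.1 CPM for BnaCnng53320D, 33.7 CPM for BnaA09g26590D and 8.63 CPM for BnaC02g40420D, against 24 h means of 1.19, 1.65 and 0.713 CPM. Without the 7, 60 of 90 root-up genes kept both directions in PA23 plants and 17 of 90 passed the root test.

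**Figure D5:**
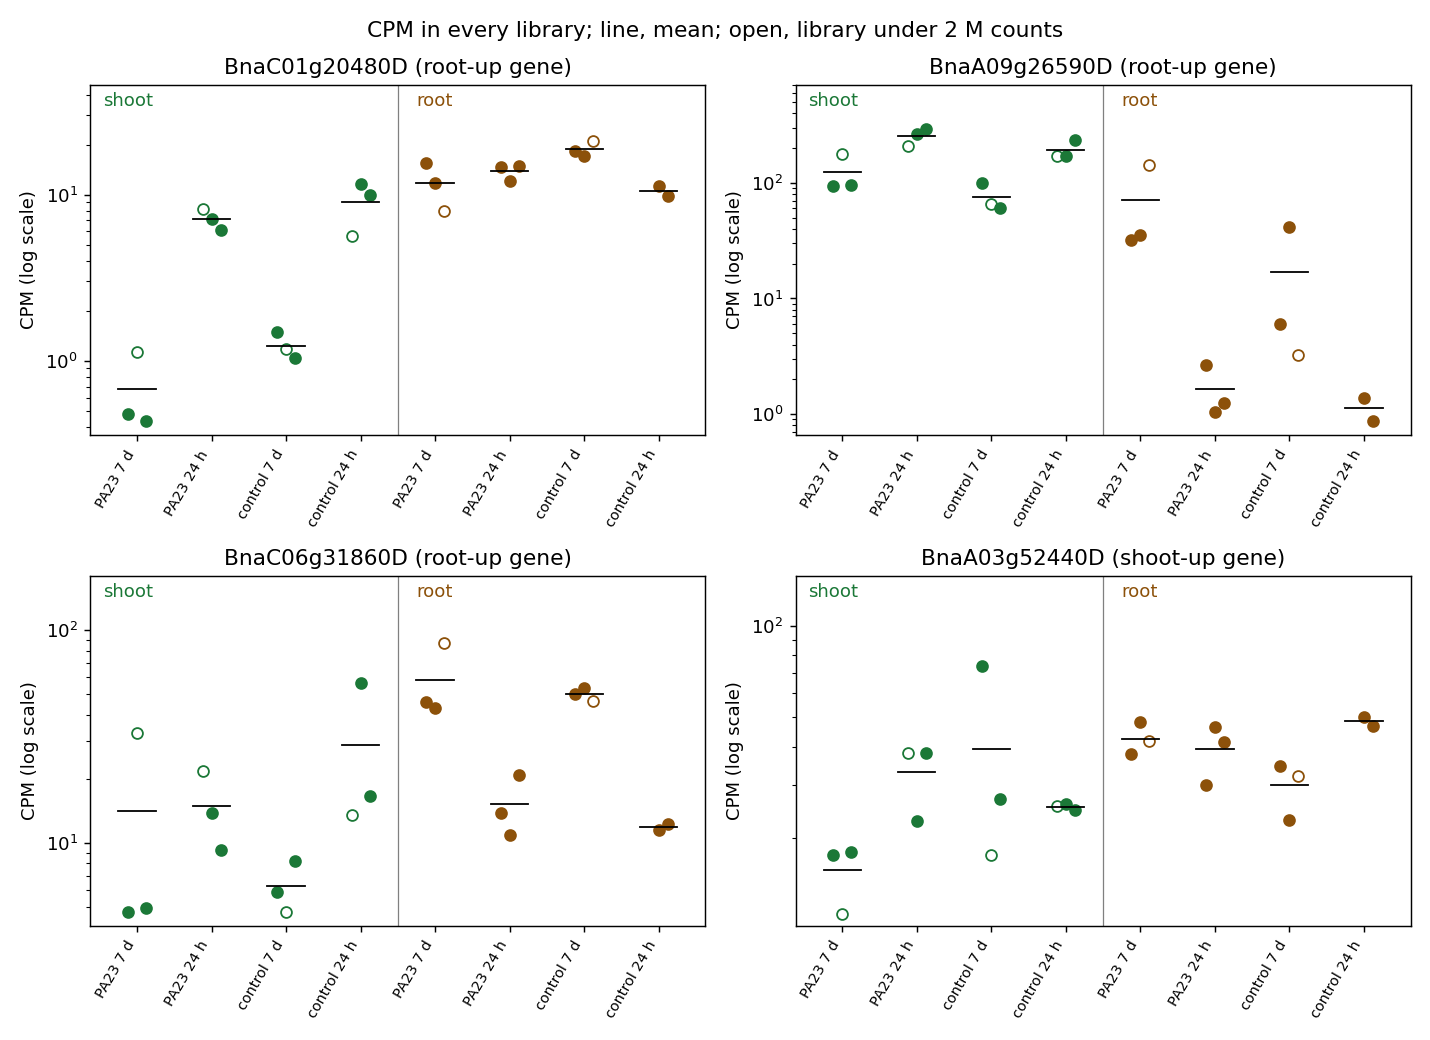
CPM (log axis) in every library of 4 members, by tissue, treatment and harvest, with the group mean as a line and open symbols for libraries under 2 M counts. BnaC01g20480D is lower at 7 d in shoots of both treatments; BnaA09g26590D and BnaC06g31860D are higher at 7 d in PA23 roots; BnaA03g52440D has 1 high control shoot library at 7 d, at 73.9 CPM.

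The lowest adjusted p among the members in roots belonged to a gene near the limit of the choice, picked out after its values were seen. BnaC07g29830D (C07, 34526953 to 34527234) lay at 49.7, 44.0 and 62.8 CPM in PA23 roots at 7 d, against 14.8, 16.2 and 18.2 CPM at 24 h (log2 fold change 1.52, SE 0.20, edgeR adjusted p = 0.000773). The libraries of a harvest were close to each other and the harvests far apart. Control roots had 22.0, 30.0 and 22.5 CPM at 7 d and 14.4 and 22.0 CPM at 24 h; 7 d replicate 3 took no part in the choice. In PA23 shoots it lay at 39.2, 79.3 and 41.8 CPM at 7 d, against 58.3, 35.7 and 49.955 CPM at 24 h, with overlap.

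Both shoot-up genes called in root lay close to the threshold. BnaC02g18350D (C02, 14382320 to 14386161) lay at 29.1, 31.2 and 22.9 CPM in PA23 roots at 7 d, against 43.4, 70.0 and 56.4 CPM at 24 h (-1.07, SE 0.29, edgeR adjusted p = 0.0385). BnaA08g00140D (A08, 137499 to 138589) lay at 25.6, 32.2 and 26.9 CPM, against 46.4, 33.9 and 46.3 CPM (-0.67, SE 0.19, edgeR adjusted p = 0.0429). Neither gene's harvests overlapped in root, but each call was lost without any 1 of 8 of the 11 libraries, for BnaC02g18350D all but PA23 24 h replicate 1 and control 7 d replicates 1 and 2, and for BnaA08g00140D all but the 3 control libraries at 7 d (edgeR adjusted p 0.051 to 0.17). They were also lost in 5 and 6 of the 10 other alternatives. In PA23 shoots the log2 fold changes were -0.26 for BnaC02g18350D and 0.07 for BnaA08g00140D, neither past the threshold (edgeR adjusted p = 0.897 and 0.997).

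The shoot-up genes in which the smaller control difference was largest went the other way in PA23 shoots, without passing the test. BnaA03g52440D (A03, 27381374 to 27385618) lay at 17.6, 11.3 and 18.1 CPM in PA23 shoots at 7 d, against 38.3, 22.8 and 38.1 CPM at 24 h (-0.86, SE 0.34, edgeR adjusted p = 0.393). Control shoots had 73.9, 17.6 and 26.9 CPM at 7 d and 25.5, 25.9 and 24.8 CPM at 24 h, so the control difference came from replicate 1 alone. The PA23 difference reached the threshold in 1 of the 12 fits that leave out a library, the one without control 7 d replicate 1 (-0.82, edgeR adjusted p = 0.0372). BnaCnng64810D (Cnn_random, 64579751 to 64583222) lay at 5.42, 6.79 and 7.62 CPM in PA23 shoots at 7 d, against 16.4, 7.12 and 11.9 CPM at 24 h (-0.61, SE 0.40, edgeR adjusted p = 0.766). Its control shoots had 21.7, 5.29 and 6.54 CPM at 7 d and 2.83, 5.26 and 6.85 CPM at 24 h, again with replicate 1 apart.

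Whether the time change differed between the tissues was tested directly in PA23 plants, as the shoot change minus the root change in 1 fit of all 23 libraries over 68002 genes. Its root side uses the 24 h libraries that entered the choice, as above. For the root-up genes 6 of 97 passed on the side of lower in shoot, where 0.218% of all genes did (0.0592% of the level range within the limit). Among the shoot-up genes 0 of 53 passed on the side of higher in shoot, where 0.112% of all genes did (0.0645% within the limit), and DESeq2 and limma-voom also called 0. At an unadjusted p under 0.05 there were 42 root-up (background 4.49%) and 5 shoot-up genes (background 4.02%). The median difference was -0.77 for the root-up genes and 0.36 for the shoot-up genes, against 0.07 over the level range. It was -6.00 for BnaA09g26590D (SE 0.97, edgeR adjusted p = 0.0136), -5.56 for BnaCnng53320D (SE 0.88, edgeR adjusted p = 0.0113) and -3.52 for BnaC01g20480D (SE 0.43, edgeR adjusted p = 0.000166), and from -4.40 to -2.05 in the other 3. The total of 6 was 1 without PA23 shoot 7 d replicate 1 or replicate 3, 16 without PA23 shoot 7 d replicate 2, 18 without control shoot 7 d replicate 1 and 3 without PA23 root 24 h replicate 3. The number of all genes on the side of lower in shoot moved as well, from 148 to 19, 29, 244, 312 and 73 in that order. BnaC01g20480D passed in all 23 fits that leave out a library. BnaA09g26590D and BnaCnng53320D missed the threshold without PA23 shoot 7 d replicate 1 or 3, and BnaA09g26590D also without PA23 root 24 h replicate 3 (edgeR adjusted p 0.0554 to 0.0873). Both also missed it with the 3 closest pairs summed (0.178 and 0.127), and DESeq2 gave them no adjusted p.

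Members that moved against their class in PA23 plants did not pass in the edgeR fits on group means of all libraries of a comparison, while some alternatives called a few. BnaC08g26910D (C08, 28128342 to 28130632), a root-up gene, lay at 16.4, 20.4 and 16.1 CPM in PA23 shoots at 7 d, against 9.11, 9.51 and 4.23 CPM at 24 h (1.26, SE 0.35, edgeR adjusted p = 0.108). Its harvests did not overlap, and the threshold was reached without control 7 d replicate 1 (0.0492), in a fit of only the groups compared (0.0234) and with a replicate block (0.0157). BnaC01g08130D had the largest such value in shoot, 1.36 (SE 0.65, edgeR adjusted p = 0.572; 0.0441 with a replicate block). In roots the largest were -1.05 for BnaC06g27910D (SE 0.34, edgeR adjusted p = 0.0697) and -0.84 for BnaA06g08310D (SE 0.37, edgeR adjusted p = 0.185). Both had 0 counts in PA23 root 7 d replicate 3, which allows up to 2.99 CPM (3 counts, counting error only) if each count is a separate molecule. Only 22.3% of counts of 1 to 10 were odd in that library, so the bound may be higher. The change of BnaC06g27910D passed without PA23 7 d replicate 1 (-1.71, edgeR adjusted p = 0.0114), with limma-voom (0.048) and with halved counts (0.0378). For the difference between tissues the largest were 1.34 for BnaA09g30590D (SE 0.47, edgeR adjusted p = 0.303) and 1.33 for BnaC01g08130D (SE 0.82, edgeR adjusted p = 0.735).

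Opposite movement can turn the order of the tissues. Among the root-up genes, 23 of 97 (23.7%) were higher in root at 7 d but higher in shoot at 24 h in PA23 plants, against 39 of 97 in the controls that chose them. The same turn was made by 10.5% of the level range in PA23 plants. The median log2 ratio of shoot to root was -1.53 at 7 d and -0.14 at 24 h in PA23 plants, and -1.49 and 0.37 in controls. Of the shoot-up genes 2 of 53 turned from root to shoot in PA23 plants (2.85% of the level range), against 40 of 53 in controls. Their median ratio was -0.44 at 7 d and -0.43 at 24 h in PA23 plants, and 0.57 and -0.84 in controls.

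PA23 and control plants were set side by side without a test, because the control libraries chose the members and the 24 h root difference was limited by the choice. At 7 d the shoot-up genes were lower in PA23 than in control shoots in 52 of 53 cases, with a median log2 ratio of -0.45, and higher in PA23 than in control roots in 52 of 53, with a median of 0.35. Genes with a high control shoot mean and a low control root mean at 7 d were favoured by the choice. Both directions can therefore follow from the choice alone, and no effect of PA23 can be read from these counts. The root-up genes showed medians of 0.02 in shoots and -0.13 in roots at 7 d. At 24 h the medians in shoots were 0.10 for the shoot-up and -0.27 for the root-up genes, and in roots -0.32 and 0.27.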

How the data were processed

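The authors deposited raw whole-number counts per gene, without scaling. HISAT2 and DESeq2 were used, per the submitters' processing notes. Versions, build, annotation, strand setting and counter were not given in the sources used here. Low counts were mostly even in most libraries, so a count is not always an independent molecule.

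CPM and the choice of members were computed in Python 3.11.15 (pandas 2.3.3, numpy 2.4.6). The members and lists were chosen with earlier results of these data known. Tests were run in R 4.3.3 with edgeR 4.0.16: filterByExpr, TMM scaling, robust quasi-likelihood test and Benjamini-Hochberg adjustment over all genes tested. The 12 shoot libraries, the 11 root libraries and all 23 libraries were each fitted on group means; all 150 members passed the filter. Fold changes are 7 d over 24 h, and the standard error (SE) is the log2 fold change, sign ignored, over the square root of F. Printed CPM are not TMM-scaled.

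Alternatives were DESeq2 1.42.0, limma-voom (limma 3.58.1), RLE size factors, no filter, only the groups compared, no library under 2 M counts, the 3 closest pairs of libraries summed, a replicate block, the label prefix as covariate, halved counts, each library left out, and other choices of members. Named are the 2 members of each class with the largest smaller control difference, the 2 largest called changes of each class and test without overlap, the 2 largest changes against class, and the genes at the limit; exceptions are stated. Of the 150 identifiers 2 matched a RefSeq symbol (Da-Ae assembly), without product names, so no pathway list or marker list was filled. No sequence was used.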

Additional observations from a re-analysis of the deposited data

Results flagged for a closer look

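The time change in PA23 plants differed between shoot and root, by the test of the difference itself, for 6 members, all root-up genes (edgeR, Benjamini-Hochberg adjusted p under 0.05). On that side 0.218% of all 68002 genes tested were called, and 0.0592% of the level range within the limit on PA23 roots at 24 h. The PA23 root libraries at 24 h in this test also entered the choice of the members, so it is not independent of that choice. For BnaA09g26590D the difference of log2 changes, shoot minus root, was -6.00, and for BnaCnng53320D it was -5.56. In both genes the PA23 root level at 24 h was 0.519 to 2.66 CPM, and the highest root level was in PA23 7 d replicate 3, the library with the high sum of shoot genes. Without that library the log2 changes in PA23 roots were 4.17 and 4.28 (edgeR adjusted p = 0.0362 and 0.0409). The test of the difference called only 1 member without PA23 shoot 7 d replicate 1 or 3, or with the 3 closest pairs of libraries summed. Both genes missed the threshold in those fits.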

How the results depend on the processing

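Fits that leave out 1 library gave 1 to 16 members called in PA23 shoots (4 in all libraries), 7 to 27 in PA23 roots (24) and 1 to 18 for the difference between tissues (6). Limma-voom gave 18 in shoots and 23 for the difference, fits of only the groups compared 12 and 18, fits without libraries under 2 M counts 16 and 14, and halved counts 12 and 13. With the 3 closest pairs summed the counts of members were 1 in shoots, 4 in roots and 1 for the difference, and with the label prefix as a covariate 10 in roots. Calls over all genes moved as well. Limma-voom called 625 of all genes lower in shoots, against 170 with edgeR. With the 3 closest pairs summed, 5 of all genes were called lower in shoots and 349 higher in roots, the latter against 1768. Members chosen without the limit on PA23 roots at 24 h gave 14 in shoots, 23 in roots and 15 for the difference, but in roots 11 root-up genes and 1 shoot-up gene then passed against their class. The causes were not tested. Replicate numbers gave no sign of pairing: deviations of same-numbered PA23 libraries correlated at -0.13 to 0.13 in shoots and -0.02 to 0.08 in roots. Pairing is not excluded, since replicates 1 and 2 in shoots and 3 in roots each include a library under 2 M counts. Numbers follow the sample titles, and the bracketed labels disagree with them for PA23 shoot 7 d replicate 1 and control root 24 h replicate 2. The bracketed labels of PA23 shoot 7 d replicates 1 and 3, the closest pair of libraries, end in the same number. Whether these libraries came from separate plants is not stated. A replicate block gave 4, 19 and 5. The remaining alternatives stayed within 1.5 times of the counts given in the report. They include a choice over all libraries, which gave 62 shoot-up and 88 root-up genes, and 49 of these 150 were members. Its similar counts thus come from a mostly different list. In PA23 roots 53 of those 88 root-up genes were higher at 7 d, and 2 passed against their class. At 0.622 to 1.70 M counts, a gene at 1 CPM has about 1 count in 6 of the libraries, which limits what they can show for the lower members.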

Other observations

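The members lay on all 19 chromosomes, and 28 of 150 lay on sequences marked random (18.7%, against 15.9% of the level range and 19.9% of all genes). The root-up genes were spread over the subgenomes as 47 in A and 49 in C, with 1 unplaced. The shoot-up genes were 15 in A and 37 in C, with 1 unplaced, so that 69.8% were in C, against 51.7% of the 21412 genes of the level range. In PA23 plants both directions were kept by 33 of the 47 A genes and 33 of the 49 C genes of the root-up class, against 30.7% and 29.5% of the level range. In the shoot-up class they were kept by 3 of 15 and 10 of 37, against 8.08% and 8.46%. The median gene span was 2080 bases in the members, against 2478 in the level range. Only 1 pair of members were neighbours: the shoot-up genes BnaC04g22270D and BnaC04g22280D lay next to each other on the same strand of C04, between 23340658 and 23341958. No member's span overlapped that of another gene, and neither did that of any gene of the level range.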
